A study of Mus musculus with 14 samples.

Results

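Genes of lysophospholipid signalling were followed through the differentiation of mouse neural stem cells (NSC). The 9 genes are the sphingosine 1-phosphate (S1P) receptor genes S1pr1, S1pr2, S1pr3 and S1pr5, the S1P-forming kinase gene Sphk1, the lysophosphatidic acid (LPA) receptor genes Lpar1 and Lpar4, the gene of the LPA-forming enzyme autotaxin, Enpp2, and Plppr1, out of 29713 genes measured. They were listed by name with their levels across the stages already known, so their stage values are given as a description and were not tested. All 9 were found in the files, and 8 passed the filter on low counts. S1pr5 did not, and only its values are given.

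The RNA came from cultured NSC of the OG2 mouse strain, which carries a green fluorescent reporter under Pou5f1 sequence, in 14 sequenced libraries. At passage 8, naloxone cells, DAMGO cells and control cells named NC were each taken undifferentiated and at day 2, day 4 and day 8 of differentiation, which makes 12 libraries. Naloxone blocks opioid receptors, whereas DAMGO activates the mu opioid receptor. The other 2 libraries were undifferentiated reference NSC, without a named drug, from passage 13 and from passage 8. Every condition was 1 library, so means and SDs of a stage are over its naloxone, DAMGO and NC libraries. The labels do not say whether these came from separate cultures, and p-values measure the spread between these libraries alone.

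S1P and LPA are small signalling lipids that act outside the cell through G protein-coupled receptors. Sphingosine kinases form S1P from sphingosine, and autotaxin, a secreted lysophospholipase D, forms LPA from lysophosphatidylcholine. The receptors differ in the G proteins they use: S1P receptor 1 signals through Gi, while S1P receptors 2 and 3 and several LPA receptors can also use G12/13. In the brain these lipids are known for roles in progenitor growth, astrocyte reactivity and myelination.

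The libraries held 4143030 to 9070533 expected counts, and 3 counts in a library of the drug experiment equalled 0.355 to 0.693 CPM (counts scaled to the library total). Levels below are in TPM, the share of transcripts after allowing for their length, and changes are log2 changes of TMM-scaled counts with their SE. Intervals cover counting error only. Markers moved with the stages. The summed level of 6 astrocyte genes was 145 to 164 TPM in undifferentiated cells and 1238 to 1402 at day 2, then 1879 to 1953 at day 4 and 7101 to 7537 at day 8. Gfap alone, at 5579 to 6141 TPM, held most of the day 8 sum, and Slc1a2 and Aldh1l1 were lower at day 8 than at day 4. The 6 NSC genes summed to 10700.0 to 11160.0 TPM in undifferentiated cells and to 7989 to 9058 TPM at day 8, but did not move together. Mki67 was at 246 to 262 TPM in undifferentiated cells and 0.14 to 0.25 at day 8, and Nes, Hes1 and Fabp7 were also lower. Vim was higher, at 3614 to 3724 TPM in undifferentiated cells and 6858 to 7370 at day 8, and Sox2 was slightly higher. Endothelial genes summed to 0.94 to 7.32 TPM over the 14 libraries with Cdh5 and Cldn5 at 0 in every one, and microglial genes summed to at most 1.74 TPM. In bulk RNA, a change in the number of cells that use a gene and a change in RNA per cell cannot be told apart.

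S1pr1 was high from day 2 on, and S1pr3 was highest at day 8. S1pr1 encodes the Gi-coupled receptor known best from lymphocyte egress and vessels, and it is also a known gene of astrocytes. The gene lies at chr3:115710433-115715072 on the minus strand (mm10). S1pr1 stood at 4.63, 4.70 and 3.93 TPM in undifferentiated naloxone, DAMGO and NC cells, and at 147, 135 and 126 TPM at day 2. At day 4 it was at 179, 197 and 209 TPM and at day 8 at 157, 177 and 174 TPM, again in naloxone, DAMGO and NC cells. Every differentiating library was thus far above every undifferentiated one. The log2 change was 4.97 ± 0.14 (SE) at day 2 against undifferentiated cells and 5.46 ± 0.14 at day 8 against undifferentiated cells. Day 8 against day 4 depended on the scale: S1pr1 averaged 169 ± 10.5 TPM at day 8 and 195 ± 15.2 TPM at day 4 (SD, n = 3), but 293 ± 21.9 CPM at day 8 and 256 ± 19.0 CPM at day 4.

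S1pr3, which encodes a receptor coupled to Gi, Gq and G12/13, was the late gene. It lies at chr13:51408639-51422797 on the plus strand. In undifferentiated naloxone, DAMGO and NC cells it had 1, 1 and 0 expected counts, and at day 2 it had 17, 13 and 9 counts. It reached 11.2, 9.73 and 10.4 TPM at day 4 and 177, 182 and 167 TPM at day 8 in naloxone, DAMGO and NC cells. No library of one stage overlapped a library of another. The log2 change was 3.43 ± 0.17 at day 4 against day 2 and 4.46 ± 0.12 at day 8 against day 4. From the 2 counts of the undifferentiated stage, the day 2 to undifferentiated ratio of CPM was 15.7, with a 95% counting interval of 4.06 to 134. The gain of S1pr3 fell where Gfap, the astrocyte filament gene, was highest: Gfap lay between 5579 and 6141 TPM at day 8, between 417 and 493 TPM at day 4 and between 4.92 and 7.0 TPM at day 2. Other genes of the astrocyte list differed. Slc1a2 lay between 109 and 119 TPM at day 4 and between 24.05 and 32.17 TPM at day 8, and Aldh1l1 was also lower at day 8. S100b and Aldoc were higher at day 8 than at day 4, and the Aqp4 ranges of these days overlapped. The part of astrocyte number in the S1pr3 level was not tested.

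S1pr2 stayed between 5.92 and 14.7 TPM in the 12 libraries. Its product couples strongly to G12/13, and the gene lies at chr9:20962361-20976781 on the minus strand. S1pr2 averaged 10.5 ± 0.852 TPM in undifferentiated cells and 13.5 ± 1.07 at day 2, then 6.75 ± 1.12 at day 4 and 6.22 ± 0.278 at day 8 (SD, n = 3). The 3 libraries of day 2 were above all others, and those of day 4 and day 8 overlapped. The log2 change was 0.40 ± 0.13 at day 2 against undifferentiated cells and -1.24 ± 0.14 at day 4 against day 2. At day 8 against undifferentiated cells it was -0.55 ± 0.14. With the GC and length trend removed, S1pr2 had 0.07 ± 0.14 at day 2 and -1.19 ± 0.15 at day 8, each against undifferentiated cells.

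S1pr5 and Sphk1 stayed near the floor. S1pr5, a receptor gene known in oligodendrocytes and natural killer cells, lies at chr9:21242912-21248443 on the minus strand. It had 6 counts in all in undifferentiated cells and 22 at day 2, then 13 at day 4 and 16 at day 8, and 0 in both reference libraries. The day 8 to undifferentiated ratio of CPM was 2.23 with an interval of 0.830 to 6.97, so no difference was detectable at day 8 at this depth. The day 2 to undifferentiated ratio was 2.95 (1.16 to 8.89), and the TPM ranges of those stages did not overlap. Sphk1 encodes a sphingosine kinase and lies at chr11:116530925-116536674 on the plus strand. It had 11 counts in all in undifferentiated cells and 33 at day 2, then 9 at day 4 and 30 at day 8. Its TPM ranges at day 4, 0.27 to 1.91, and at day 2, 1.04 to 2.74, overlapped. The ranges of day 2 and of day 8 did not overlap that of undifferentiated cells. The ratios of CPM to undifferentiated cells were 2.41 (1.19 to 5.29) at day 2 and 2.29 (1.11 to 5.05) at day 8. With the GC and length trend removed, Sphk1 had log2 changes of 0.89 ± 0.54 at day 2 and 0.47 ± 0.55 at day 8, each against undifferentiated cells. An antisense gene overlaps Sphk1 and another overlaps Enpp2. Antisense genes also overlap S1pr3 and S1pr5 but are not among the genes measured. The kit does not mark strand, so reads of a stretch that both genes of a pair share cannot be told apart.

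Lpar1 had few counts up to day 2 and was highest at day 8. Lpar1 encodes the most widely studied LPA receptor, known in the ventricular zone and in oligodendrocytes, and lies at chr4:58435255-58553898 on the minus strand. It had 2 counts in each undifferentiated library, and 2, 1 and 6 counts at day 2 in naloxone, DAMGO and NC cells. At day 4 it stood at 3.35, 3.66 and 3.65 TPM and at day 8 at 14.8, 15.8 and 12.5 TPM, with no overlap between days. The log2 change of Lpar1 was 3.34 ± 0.35 at day 4 against day 2 and 2.45 ± 0.20 at day 8 against day 4. From 6 counts in undifferentiated cells, the day 8 to undifferentiated ratio of CPM was 68.8 (31.4 to 188).

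Lpar4, the gene of an LPA receptor outside the Edg family, lies at chrX:106920625-106933900 on the plus strand. It stood at 6.18, 6.11 and 5.81 TPM in undifferentiated naloxone, DAMGO and NC cells. At day 2 it was at 1.19, 2.42 and 5.74 TPM, at day 4 at 7.95, 8.33 and 7.47 TPM and at day 8 at 1.22, 1.26 and 1.95 TPM. The day 8 libraries were thus below all undifferentiated and day 4 libraries, and day 2 was split, with the NC library at the undifferentiated level. The log2 change was -1.85 ± 0.38 at day 8 against undifferentiated cells and -2.04 ± 0.38 at day 8 against day 4. At day 2 against undifferentiated cells it was -1.04 ± 0.35, and -1.67 without the NC library of day 2 or -0.60 without the naloxone library of day 2. Lpar4 transcripts are GC-poor, and with a trend on GC content and length removed the change was 1.15 ± 0.17 at day 2 and 1.00 ± 0.19 at day 8, each against undifferentiated cells.

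**Figure D1:**
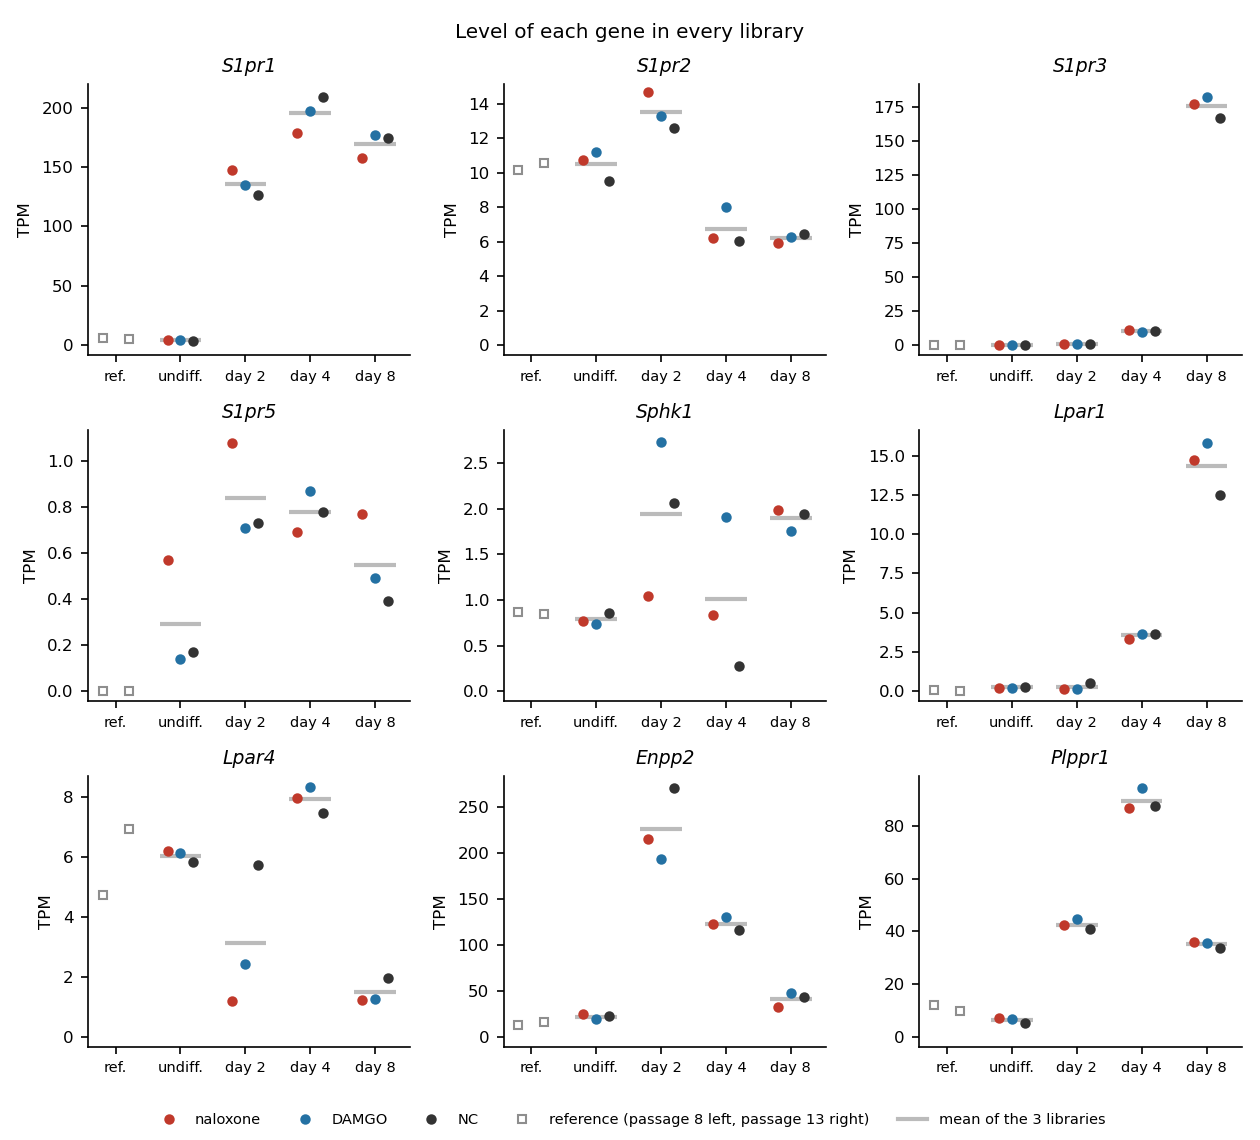
Level in TPM (vertical axes, each panel on its own scale) of the 9 genes in the 14 libraries, by stage (horizontal axes), with the mean of the 3 libraries of a stage as a grey bar and the reference cells as open squares. S1pr1 is high from day 2 on, S1pr3 and Lpar1 peak at day 8, Enpp2 peaks at day 2, Plppr1 has its highest TPM at day 4, and the day 2 libraries of Lpar4 lie apart at 1.19, 2.42 and 5.74 TPM.

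Enpp2 was highest at day 2, and Plppr1 had its highest TPM at day 4. Enpp2 encodes autotaxin, which is also known as a product of oligodendrocyte precursors and choroid plexus, and lies at chr15:54838901-54952892 on the minus strand. It stood at 24.3, 18.9 and 22.7 TPM in undifferentiated naloxone, DAMGO and NC cells and at 215, 193 and 271 TPM at day 2. It was lower again at day 4, at 122, 129.9 and 116 TPM, and at day 8, at 32.8, 48.2 and 43.7 TPM. The 4 stages did not overlap. The log2 change of Enpp2 was 3.38 ± 0.17 at day 2 against undifferentiated cells, -1.10 ± 0.15 at day 4 against day 2 and -1.17 ± 0.15 at day 8 against day 4. The summed level of 6 oligodendrocyte precursor genes was also highest at day 2. It was 2328 to 2491 TPM in undifferentiated cells and 3642 to 4084 at day 2, then 3009 to 3086 at day 4 and 1141 to 1240.0 at day 8. Olig1, at 2529 to 2904 TPM, held most of the day 2 sum, and Olig2 was also highest at day 2. Pdgfra, Gpr17 and Sox10 were highest at day 4, with Gpr17 at 215 to 235 TPM at day 2 and 506 to 528 at day 4. Cspg4 was highest in undifferentiated cells. The part of oligodendrocyte precursors in the Enpp2 level was not tested.

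Plppr1 encodes a neuronal membrane protein related to the lipid phosphate phosphatases that is thought to lack their catalytic activity. The gene lies at chr4:49059273-49340259 on the plus strand. It averaged 6.39 ± 1.05 TPM in undifferentiated cells and 42.6 ± 1.92 at day 2, then 89.7 ± 4.21 at day 4 and 35.1 ± 1.29 at day 8 (SD, n = 3). In TPM no stages overlapped, and day 4 held the highest libraries. The log2 change was 2.80 ± 0.10 at day 2 against undifferentiated cells, 0.85 ± 0.08 at day 4 against day 2 and -0.95 ± 0.08 at day 8 against day 4. With the GC and length trend removed those of day 4 against day 2 and day 8 against day 4 were -0.13 ± 0.19 and 0.38 ± 0.19, so day 4 was not the highest there. Dcx, a gene of young neurons, also had its highest TPM at day 4. It was at 2.52 to 2.89 TPM in undifferentiated cells and 8.52 to 19.2 at day 2, then 88.8 to 98.3 at day 4 and 12.8 to 21.4 at day 8. Of the same neuron list, Rbfox3, Tubb3 and Syt1 were also highest at day 4. Map2 at day 4, 737 to 783 TPM, overlapped day 2, 242 to 754 TPM. Snap25 was highest in undifferentiated cells, at 5.98 to 8.75 TPM, and was at 4.9 to 5.67 at day 4. The part of neurons in the Plppr1 level was not tested.

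In TPM, 6 of the 9 genes were higher in all 3 libraries of day 8 than in all 3 undifferentiated ones, and 2, S1pr2 and Lpar4, were lower. Most genes changed between stages here. At day 8 against undifferentiated cells, 79.8% of the 13413 genes tested passed an adjusted p of 0.05 in edgeR's test. That share and those below count calls in either direction, not TPM ranges without overlap. The share of all genes without overlap was not computed. At day 2 against undifferentiated cells, 7 were higher and 1 was lower, beside 69.0% of all genes called. At day 4 against day 2, 5 were higher and 2 lower (51.3% called), and at day 8 against day 4, 2 were higher and 4 lower (67.9% called). Nothing is read from these counts, since the stage levels had chosen the genes.

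Summed over each family, the receptor makeup changed. S1pr2 held 67.1 to 69.9% of the summed TPM of the 5 S1P receptor genes in undifferentiated cells, and S1pr1 held 28.8 to 28.9%. S1pr1 held 89.8 to 90.1% at day 2 and 90.8 to 92.3% at day 4. At day 8, S1pr3 held 48.0 to 51.9% and S1pr1 46.2 to 50.1%, so their ranges overlapped. The summed level was 13.6 to 16.2 TPM in undifferentiated cells and 341 to 366 TPM at day 8.

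The LPA receptors changed in makeup too. Lpar6 held 59.2 to 62.6% of the summed TPM of the 6 LPA receptor genes in undifferentiated cells, beside 28.0 to 35.4% for Lpar4. Lpar4 led at day 4 with 44.2 to 49.4%, and Lpar1 led at day 8 with 74.4 to 83.2%. The summed level was 17.3 to 20.8 TPM in undifferentiated cells and 5.84 to 12.9 at day 2, then 16.6 to 16.9 at day 4 and 16.8 to 20.7 at day 8. At day 8 the S1P receptor sum was above the LPA receptor sum in all 3 libraries. Lpar6 and Lpar4 transcripts are GC-poor, and these shares were not recomputed with the GC and length trend removed. With it removed, the log2 change at day 8 against undifferentiated cells was -0.69 ± 0.25 for Lpar6, where counts gave -3.12 ± 0.25. For Lpar4 it was 1.00 ± 0.19, where counts gave -1.85 ± 0.38.

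**Figure D2:**
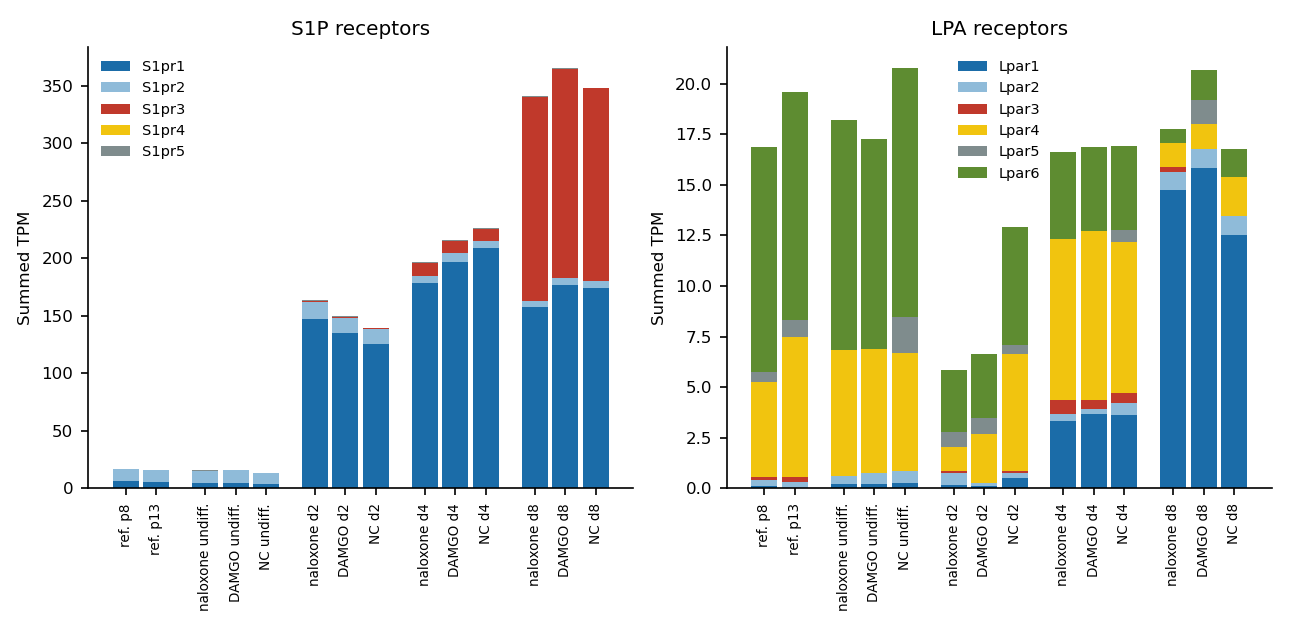
Summed TPM (vertical axes) of the S1P receptor genes, left, and the LPA receptor genes, right, in each of the 14 libraries, stacked by gene. S1pr2 fills most of the S1P bars before differentiation, S1pr1 at day 2 and day 4, and S1pr1 and S1pr3 share the day 8 bars, while Lpar6 and Lpar4 give way to Lpar1 at day 8. The bars are deposited TPM, with no GC and length trend removed.

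Promoter sequences are shown for S1pr3 and Lpar1, which were both highest at day 8, and for Lpar4, which was low at day 8. They come from RefSeq (GRCm38.p6) and run from 250 bases before to 50 bases after the annotated start. Of the 9 genes, 7 matched an entry, and S1pr1 and Enpp2 did not. Capitals mark matches on either strand to an E-box (CANNTG), an NFI motif (TTGGC), a STAT site (TTCNNNGAA) or a TATA box (TATAAA), and no 2 matches overlap in these windows. The S1pr3 promoter lies at chr13:51408368-51408667 on the plus strand, the first of 3 Lpar1 promoters at chr4:58553442-58553741 on the minus strand, and the Lpar4 promoter at chrX:106920375-106920674 on the plus strand.
S1pr3: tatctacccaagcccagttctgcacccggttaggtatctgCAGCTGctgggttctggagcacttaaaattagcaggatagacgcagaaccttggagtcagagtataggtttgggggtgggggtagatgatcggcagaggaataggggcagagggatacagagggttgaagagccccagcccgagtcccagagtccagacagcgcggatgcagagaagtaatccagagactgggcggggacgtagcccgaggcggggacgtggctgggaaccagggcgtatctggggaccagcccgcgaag
Lpar1: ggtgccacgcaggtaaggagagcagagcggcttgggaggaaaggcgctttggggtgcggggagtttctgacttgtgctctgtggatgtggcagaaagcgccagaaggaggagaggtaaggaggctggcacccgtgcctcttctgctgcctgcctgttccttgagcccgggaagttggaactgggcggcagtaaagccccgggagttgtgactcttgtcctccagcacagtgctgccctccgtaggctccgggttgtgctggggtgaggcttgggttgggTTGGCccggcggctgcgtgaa
Lpar4: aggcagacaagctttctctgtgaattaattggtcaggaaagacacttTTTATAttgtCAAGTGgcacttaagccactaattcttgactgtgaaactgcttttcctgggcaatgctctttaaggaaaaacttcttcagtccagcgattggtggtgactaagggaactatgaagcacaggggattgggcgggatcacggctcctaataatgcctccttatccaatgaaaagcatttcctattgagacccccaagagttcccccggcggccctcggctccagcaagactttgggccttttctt
The S1pr3 promoter held 1 E-box match, the Lpar1 promoter 1 NFI match, and the Lpar4 promoter 1 E-box match and 1 match to TATAAA. The latter reads TTTATA on the gene's strand and lies early in the window, away from the annotated start. Among 32851 RefSeq promoters, 72.3% held an E-box, 46.7% an NFI motif, 13.6% a TATA box and 8.3% a STAT site. The GC content was 59.0% for S1pr3, 63.0% for Lpar1 and 46.7% for Lpar4, beside a median of 52.7%. The motif matches are common letters and describe these windows only.

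Removing a trend on base composition moved Lpar4, Plppr1 and S1pr2, and some changes of Sphk1 and S1pr1. Lpar4 transcripts were 33.7% GC, at percentile 0 of the genes tested, and Plppr1 transcripts 41.4% GC, at percentile 6, while S1pr2 transcripts were 58.4% GC, at percentile 90.7. With a smooth trend on GC content and length removed across libraries, Lpar4 turned sign against undifferentiated cells, as given above. Its change was -0.16 ± 0.16 at day 4 against day 2 and 0.01 ± 0.18 at day 8 against day 4. Plppr1 had 3.96 ± 0.24 at day 2 and 4.21 ± 0.24 at day 8, each against undifferentiated cells. Sphk1, at 60.0% GC and percentile 95.5, had 0.47 ± 0.55 at day 8 against undifferentiated cells, where counts gave 1.19 ± 0.53. S1pr1 had 0.05 ± 0.12 at day 4 against day 2, where counts gave 0.29 ± 0.10. At day 8 against undifferentiated cells the log2 change with the trend removed was 5.49 ± 0.18 for S1pr1, 6.0 ± 0.28 for Lpar1 and 1.25 ± 0.13 for Enpp2. For S1pr3 it was 4.49 ± 0.11 at day 8 against day 4. The direction of Lpar4 between stages thus rested on whether this trend was removed.

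**Figure D3:**
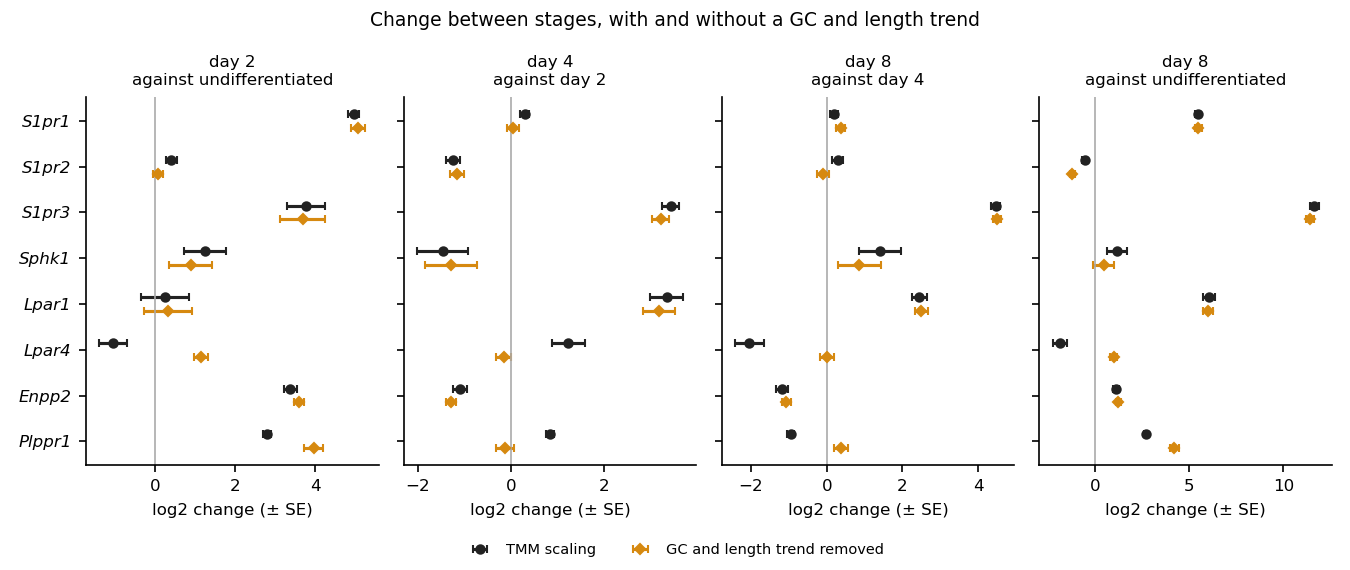
Log2 change (horizontal axes, ± SE) of the 8 genes that passed the filter in 4 comparisons of stages, with TMM scaling in black and with a GC and length trend removed in orange. The orange points of Lpar4 lie across 0 from the black ones or at 0, and those of S1pr1, S1pr3, Lpar1 and Enpp2 at day 8 against undifferentiated cells stay by the black ones. The S1pr3 points against undifferentiated cells rest on 2 counts and depend on the prior count of the fit.

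Other genes of these pathways changed with differentiation too. Of 54 listed genes, 38 were tested. At day 8 against undifferentiated cells 25 rose, 8 fell and 5 did not pass (edgeR quasi-likelihood test, adjusted p under 0.05 over all genes). The share called was 86.8%, beside 79.8% of all genes. The median log2 change was 0.74, beside 0.05 over all genes tested. At day 2 against undifferentiated cells 18 rose, 9 fell and 11 did not pass (71.1% called, beside 69.0% of all genes). At day 4 against day 2 the counts were 12, 10 and 16 (57.9% called, beside 51.3% of all genes). At day 8 against day 4 they were 18, 6 and 14 (63.2% called, beside 67.9% of all genes). On the log2(TPM + 1) scale the median of all genes at day 8 against day 4 was -0.29, and 2571 genes rose and 6153 fell, where the count scale gave 4929 and 4178. At day 4 against day 2 the TPM scale gave 4804 rises and 1573 falls with a median of 0.20, where the count scale gave 3589 and 3286. At day 8 against undifferentiated cells the log2(TPM + 1) scale called 20 listed genes higher and 8 lower, with a median of -0.16 over all genes, and the fit with a GC and length trend removed called 22 higher and 9 lower.

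Among the other receptors, Lpar6, whose product couples to G12/13, fell. Lpar6 averaged 1.17 ± 0.455 TPM at day 8 and 11.4 ± 0.946 TPM in undifferentiated cells (SD, n = 3), a log2 change of -3.12 ± 0.25 (edgeR adjusted p = 1.09e-06). With the GC and length trend removed it was -0.69 ± 0.25. Lpar6 transcripts are 36.4% GC. Lpar2 averaged 0.910 ± 0.0436 TPM at day 8 and 0.530 ± 0.105 TPM in undifferentiated cells, with a change of 0.97 ± 0.41 (edgeR adjusted p = 0.0477). With the trend removed its adjusted p was 0.129 by the same edgeR test. S1pr4, Lpar3 and Lpar5 were too low to test, with 5, 17 and 24 counts over the 14 libraries. Gpr55, the receptor gene for lysophosphatidylinositol, was the tested one of 5 receptor genes of other lysolipids, and it rose by 3.39 ± 0.38 (edgeR adjusted p = 1.28e-05).

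Genes of S1P turnover changed in both directions. Of 12 listed, 7 were tested, 4 rose and 2 fell at day 8 against undifferentiated cells, with a median change of 0.54. The share called was 85.7%, beside 79.8% of all genes, where 5565 rose and 5142 fell. Sgpl1, the S1P lyase that degrades S1P irreversibly, averaged 199 ± 13.1 TPM at day 8 and 79.1 ± 2.46 TPM in undifferentiated cells, a rise of 1.46 ± 0.06 (edgeR adjusted p = 4.74e-09). Sphk2, the second sphingosine kinase, stood at 18.8 ± 2.18 TPM at day 8 and 10.97 ± 0.861 TPM in undifferentiated cells, above Sphk1 in every library of both stages. It rose by 0.99 ± 0.13 (edgeR adjusted p = 4.41e-05), and by 0.34 ± 0.12 with the GC and length trend removed. Asah1, acid ceramidase, which releases sphingosine, fell by 0.67 ± 0.11 on the log2 scale (edgeR adjusted p = 0.000176), and with the trend removed the change was -0.18 with an edgeR adjusted p of 0.0709.

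Of 12 genes of LPA formation and removal, 9 were tested, and 5 rose and 2 fell at day 8 against undifferentiated cells, with a median change of 0.42. The share called was 77.8%, beside 79.8% of all genes. Plpp1, a phosphatase that removes the phosphate of LPA and S1P at the cell surface, averaged 45.2 ± 2.85 TPM at day 8 and 11.2 ± 0.595 TPM in undifferentiated cells. It rose by 2.23 ± 0.12 (edgeR adjusted p = 5.7e-08). Plppr3, a relative of Plppr1, averaged 21.3 ± 1.07 TPM at day 8 and 5.26 ± 0.538 TPM in undifferentiated cells, and rose by 2.37 ± 0.16 (edgeR adjusted p = 3.21e-07). Liph, a phospholipase that forms LPA from phosphatidic acid, had 0 counts at day 8 and 111 in undifferentiated cells. Against a floor of 3 counts over the day 8 libraries it was at least 44.2-fold lower (edgeR adjusted p = 1.6e-05).

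YAP and SRF regulate transcription and respond to the state of the actin skeleton. Of their target genes, 8 of the 9 tested rose at day 8 against undifferentiated cells and 0 fell. The share called in either direction was 88.9%, beside 79.8% of all 13413 genes, where 5565 rose and 5142 fell. The median change of the target genes was 3.12, beside 0.05 over all genes. Myl9, a myosin regulatory light chain gene, averaged 255 ± 21.0 TPM at day 8 and 3.34 ± 1.80 TPM in undifferentiated cells, a rise of 6.76 ± 0.22 (edgeR adjusted p = 1.23e-09). Ccn1, a secreted matrix protein gene, averaged 168 ± 33.4 TPM at day 8 and 6.40 ± 1.26 TPM in undifferentiated cells, a rise of 4.92 ± 0.17 (edgeR adjusted p = 1.85e-09). Ccn2, its relative, rose by 4.48 ± 0.52 (edgeR adjusted p = 1.88e-05). Genes of pericytes and mesenchyme, whose list also holds Acta2, summed to 69.7 to 88.8 TPM at day 8 and to 42.0 to 55.1 TPM in undifferentiated cells. Cspg4, also on the oligodendrocyte precursor list, held most of the undifferentiated sum, at 41.12 to 47.54 TPM, and was at 8.85 to 11.28 at day 8. Pdgfrb was at 0.0 to 0.25 TPM in undifferentiated cells and 27.46 to 34.75 at day 8. Acta2 was at 0.24 to 7.31 TPM in undifferentiated cells and 28.74 to 42.46 at day 8. Rgs5, Col1a1 and Col1a2 stayed at or below 1.35 TPM at both stages. The part of such cells in these rises was not tested.

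**Figure D4:**
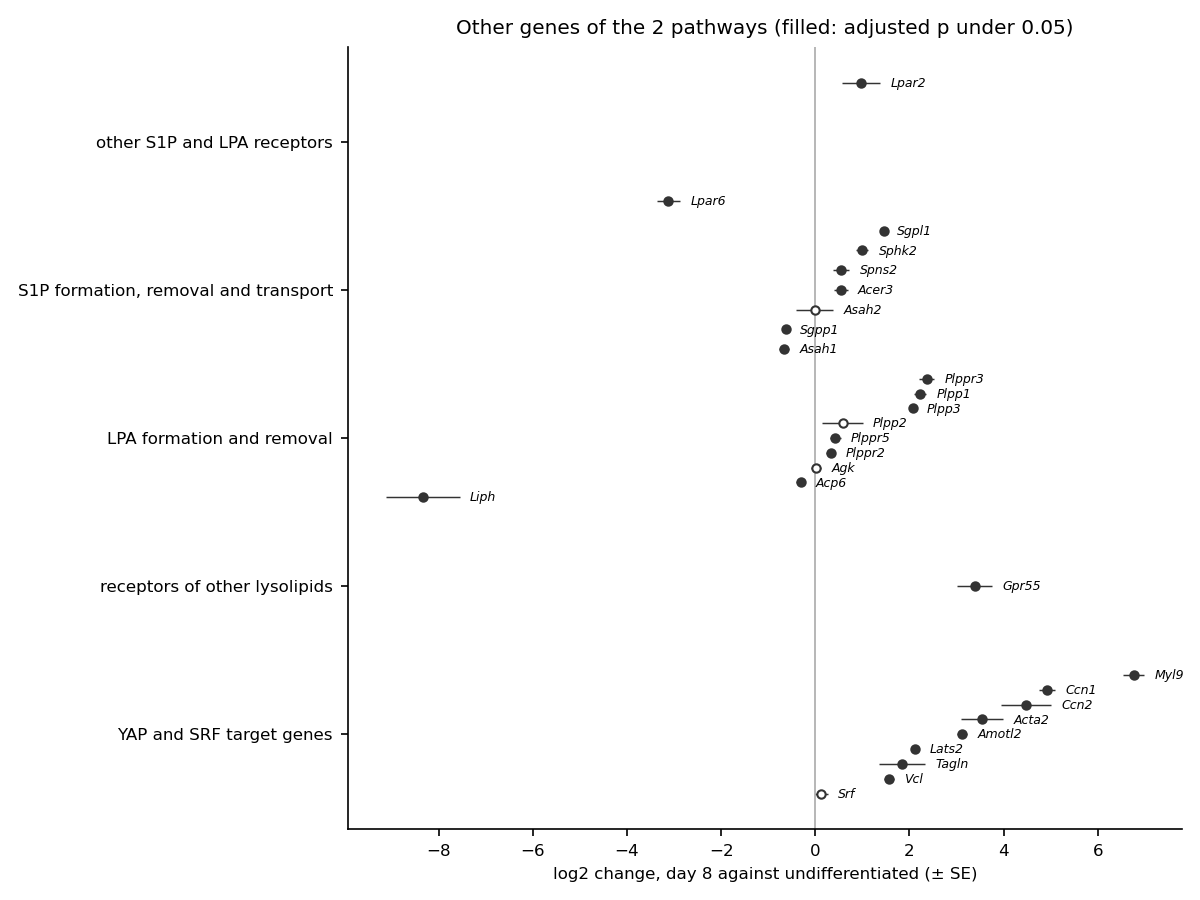
Log2 change (horizontal axis, ± SE) at day 8 against undifferentiated cells of tested genes of 5 lists, grouped by list on the vertical axis, with filled points for an adjusted p under 0.05. The YAP and SRF target genes lie right of 0, from Vcl to Myl9, except the open point of Srf, while Lpar6 and Liph lie far left. The Liph point is a fit to 0 counts at day 8 and is no bound.

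The drugs were then compared within these stages. The genes were chosen with earlier results of these data known, and whether that choice was free of the drug values was not tested. Across the 4 stages, naloxone against NC called 0% of 13413 genes in edgeR's test, with 1344 at an unadjusted p under 0.05, and DAMGO against NC called 0%, with 325. Naloxone against DAMGO also called 0%, with 245 genes at an unadjusted p under 0.05. None of the 8 genes tested passed for either drug. Lpar4 had the lowest fitted value for naloxone, -0.56 ± 0.31 (edgeR adjusted p = 0.485, with 0.287 to 0.997 over the alternatives), and -0.37 ± 0.31 for DAMGO (edgeR adjusted p = 0.952). Plppr1 had 0.13 ± 0.08 for naloxone and 0.15 ± 0.08 for DAMGO (edgeR adjusted p = 0.506 and 0.952). S1pr1 had 0.00 ± 0.10 for naloxone and 0.05 ± 0.10 for DAMGO, and S1pr3 had 0.13 ± 0.13 for naloxone and 0.11 ± 0.13 for DAMGO. For Sphk1 the SE was 0.44 for both drugs, so changes of that size were not detectable at this depth.

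Whether a drug acted otherwise in differentiating cells than in undifferentiated ones was asked with an interaction term. It called 0% of 13785 genes for naloxone, with 240 at an unadjusted p under 0.05, and 0% for DAMGO, with 221. Plppr1 had -0.37 ± 0.20 for naloxone and Lpar4 had -0.93 ± 0.70 (edgeR adjusted p = 1 for each). DESeq2 called 2 genes for naloxone and 0 for DAMGO.

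The day 2 libraries of Lpar4 stood out within that. Lpar4 had 21 counts in the naloxone library, 30 in the DAMGO library and 82 in the NC library of day 2. The ratio of CPM was 0.224 for naloxone over NC (0.131 to 0.365) and 0.453 for DAMGO over NC (0.288 to 0.695). Both drug comparisons share the NC library. Past 2-fold either way were 14.4% of 12861 genes for naloxone and 11.1% of 12773 genes for DAMGO at day 2. In undifferentiated cells and at day 4 the 4 Lpar4 ratios lay between 1.05 and 1.11, and at day 8 they were 0.606 for naloxone and 0.639 for DAMGO with intervals that include 1. Across 13340 genes, the day 2 log2 ratio to NC correlated with GC content with r = 0.537 for naloxone and 0.482 for DAMGO, and Lpar4 transcripts are at percentile 0 of GC content. With the GC and length trend removed within stages, the Lpar4 difference was -0.14 ± 0.14 for naloxone and 0.08 ± 0.14 for DAMGO, and without the day 2 libraries the naloxone value was -0.06 ± 0.18.

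S1pr1 and Enpp2 differed between single libraries by more than counting error, but not in 1 direction over the stages. The S1pr1 ratio of naloxone over NC was 1.26 (1.17 to 1.36) at day 2, 0.862 (0.801 to 0.928) at day 4 and 0.876 (0.822 to 0.935) at day 8. The Enpp2 ratio was 0.861 (0.817 to 0.908) at day 2 and 0.741 (0.649 to 0.847) at day 8 for naloxone, and 0.764 (0.719 to 0.811) at day 2 for DAMGO. At day 4 its ratio was 1.06 (0.962 to 1.16) for naloxone and 1.12 (1.02 to 1.23) for DAMGO. S1pr3 at day 8 was at 454 CPM with naloxone, 476 with DAMGO and 442 with NC, with ratios to NC of 1.03 and 1.08. These intervals hold no spread between cultures.

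**Figure D5:**
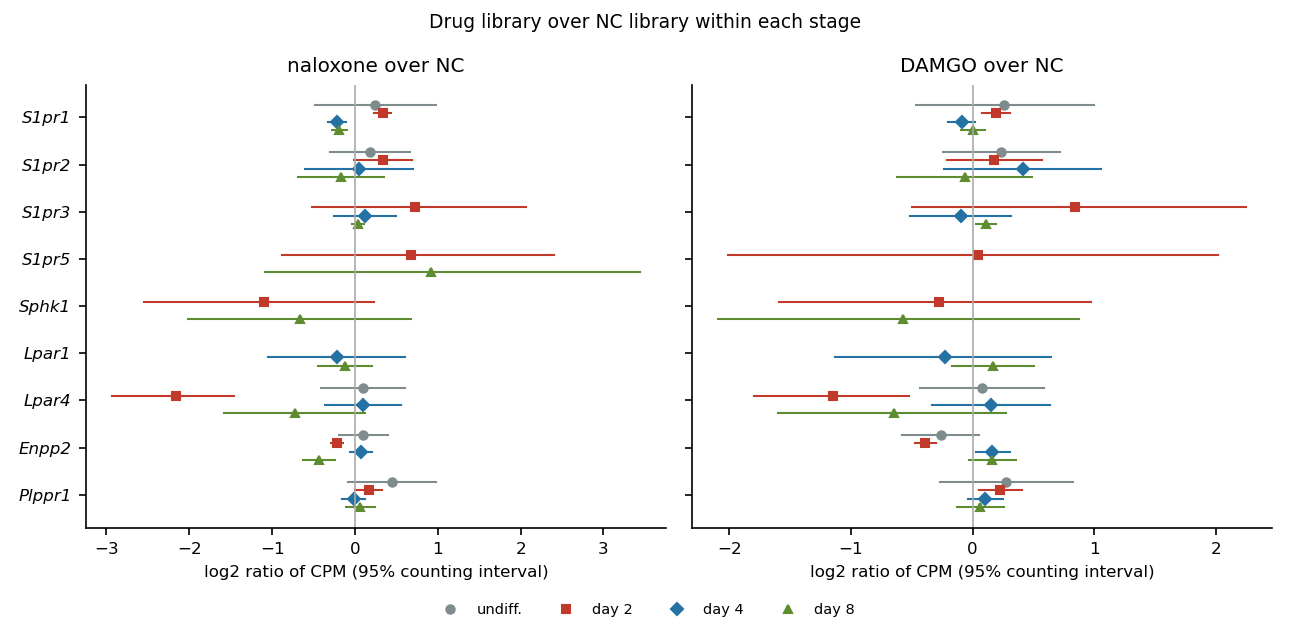
Log2 ratio of CPM (horizontal axes) of the naloxone library, left, and the DAMGO library, right, to the NC library of the same stage, with 95% counting intervals, for pairs with at least 10 counts. Most points lie near 0, and Lpar4 at day 2 lies left of 0 in both panels, at ratios of 0.224 and 0.453.

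The reference NSC at passage 13 and passage 8 were 1 library each and were compared with no test. Past 2-fold were 4.38% of 13210 genes, and none of the 5 members with at least 10 counts over both libraries. Lpar4 stood at 6.94 TPM at passage 13 and 4.72 TPM at passage 8, a ratio of CPM of 1.45 (1.06 to 2.01). Enpp2 had a ratio of 1.24 (0.984 to 1.57), S1pr2 of 1.03 (0.770 to 1.38), Plppr1 of 0.870 (0.683 to 1.11) and S1pr1 of 0.839 (0.577 to 1.22). Sphk1 had 5 counts at passage 13 and 3 at passage 8, S1pr3 had 0 at passage 13 and 3 at passage 8, and Lpar1 had 0 at passage 13 and 1 at passage 8. Enpp2 was at 16.2 TPM at passage 13 and 12.6 TPM at passage 8, and Plppr1 at 9.98 TPM at passage 13 and 11.9 TPM at passage 8. Both Enpp2 values were below the 18.9 to 24.3 TPM of the undifferentiated cells of the drug experiment, and both Plppr1 values were above their 5.24 to 7.29 TPM. S1pr1 was at 5.43 TPM at passage 13 and 6.40 TPM at passage 8, above the 3.93 to 4.70 TPM of those cells, and S1pr2, at 10.6 TPM at passage 13 and 10.1 TPM at passage 8, was within their range.

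Genes with the most similar pattern were found by Pearson's r of log2 CPM over the 12 libraries, among about 10705 genes. These libraries share stages, so high values are common and are given as a description. S1pr1 was most like Ttyh1 (r = 0.999) and Abat (0.999), S1pr3 most like App (0.998), and Lpar1 most like Osbpl1a (0.993) and Ccdc80 (0.992). Enpp2 was most like Paqr8 (0.989) and Sema5a (0.985), and Plppr1 most like Pde9a (0.994) and Mb21d2 (0.994). Lpar4 was most like Carf (0.995) and Ttbk2 (0.993), S1pr2 most like Extl3 (0.965) and Selenbp1 (0.965), and Sphk1, with few counts, most like Bcat2 (0.924) and Bcam (0.880).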

How the data were processed

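RNA of 14 libraries of mouse NSC was prepared with the TruSeq RNA kit, per the labels. The submitters' processing notes name Bowtie, RSEM and mm10, with no versions. Per the file headers, the deposited values of each gene are TPM, FPKM (not used), an expected count and gene lengths. The authors' expected counts were rounded to whole numbers here, and deposited TPM values were used as they stand. A GENCODE annotation of the same build matched 29202 identifiers.

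The 9 genes, the lists and the alternatives were chosen with earlier results of these data known. No condition is replicated, so 12 libraries were fitted with additive terms for stage and treatment, which leaves 6 residual degrees of freedom for the spread. The test was edgeR's quasi-likelihood test (4.0.16, R 4.3.3) with TMM scaling, its low-count filter (13413 genes kept) and its default prior count. P-values had Benjamini-Hochberg adjustment over all genes, with a threshold of 0.05. A prior count of 1 was used for the log2 CPM of the trends, the correlations with GC content and the genes of similar pattern. SEs come from the F statistic. The interaction model had 4 residual degrees of freedom. Within-stage and passage ratios have exact conditional binomial intervals (95%). Alternatives were DESeq2 (1.42.0) and its size factors, limma and voom (3.58.1), no filter, log2(TPM + 1) and log2(TPM + 0.1), the passage 8 reference added, each library left out and, for the drugs, the day 2 libraries left out. The trends on GC content and length (mgcv 1.9.3) and the within-stage ratios were added after the data were seen. Named pathway genes are up to 3 per list with the largest change at day 8 against undifferentiated cells past the threshold, and every other S1P and LPA receptor. The code was tested on simulated data. The result of 1 pathway list, whose genes are in the counts over all lists, and 1 gene of similar pattern are not reported here.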

Additional observations from a re-analysis of the deposited data

How the results depend on the processing

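No paired analysis was possible because the labels carry no replicate numbers and each condition is 1 library. With 1 library a condition, drug effects that differ between stages are part of the error, and genes with few counts, such as S1pr5 and Sphk1, are limited by depth. Of 640 stage changes of the 8 genes recomputed, 81 moved by over 1 SE and 13 turned sign. With the GC and length trend removed across libraries 7 turned: for Lpar4 1.149, -0.156, 0.007 and 1.0 (day 2 against undifferentiated cells, day 4 against day 2, day 8 against day 4 and day 8 against undifferentiated cells), for Plppr1 -0.13 and 0.382 (day 4 against day 2 and day 8 against day 4), and for S1pr2 -0.099 (day 8 against day 4). At day 8 against day 4, S1pr1 and S1pr2 had log2 changes of 0.197 and 0.289 on counts but -0.201 and -0.093 on log2(TPM + 1) and -0.202 and -0.105 on log2(TPM + 0.1). Lpar1 at day 2 against undifferentiated cells had 0.255, but -0.054 on log2(TPM + 0.1) and -0.597 without the NC day 2 library.

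No drug difference of a member passed in any of 318 recomputed values of 16 pairs of gene and drug, and 29 turned sign. The smallest adjusted p was 0.287. For naloxone against NC, S1pr1 was -0.004 with no filter, -0.017 with limma-voom and -0.167 without the day 2 libraries, and Sphk1 was 0.079 on log2(TPM + 0.1). For DAMGO against NC, Sphk1 was 0.051 with DESeq2, 0.007 with limma-voom, 0.325 on log2(TPM + 1) and 0.628 on log2(TPM + 0.1), and Lpar1 was 0.039 with limma-voom. Without the day 2 libraries, S1pr1, Lpar1 and Enpp2 were -0.02, 0.07 and 0.066 for DAMGO, and Lpar4 was 0.082 with the trend removed within stages. With each library left out, naloxone values ranged over -0.116 to 0.079 for S1pr1, -0.614 to 0.014 for Sphk1 and -0.208 to 0.012 for Enpp2. DAMGO values ranged over -0.059 to 0.13 for S1pr1, -0.38 to 0.193 for Sphk1, -0.39 to 0.07 for Lpar1, -0.617 to 0.063 for Lpar4 and -0.21 to 0.029 for Enpp2. Lpar4 ranged over -0.82 to -0.124 for naloxone, and the value nearest 0 was without the NC day 2 library.

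Of 290 recomputed counts of calls, 10 moved by over 1.5 times. Pathway genes called at day 4 against day 2, 22 on counts, were 14 on log2(TPM + 0.1) and 14 to 24 with each library left out, the 14 without DAMGO day 2, naloxone day 4 or DAMGO day 4. DAMGO against NC and naloxone against DAMGO called 0 to 2 genes with each library left out, the 2 without DAMGO day 8. Naloxone by differentiation called 2 genes with DESeq2 and 6 on log2(TPM + 0.1), and DAMGO by differentiation called 1 on log2(TPM + 1) and 9 on log2(TPM + 0.1). The interaction could not be fitted without an undifferentiated library of the drug or of NC. The cause of these differences was not tested.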

Other observations

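Some pathway genes outside the rule for named genes are given here, chosen after their values were seen. Plpp3, a second surface phosphatase of LPA and S1P, rose by 2.08 ± 0.06 on the log2 scale at day 8 against undifferentiated cells (edgeR adjusted p = 5.62e-10), and by 1.93 ± 0.06 with the GC and length trend removed. Spns2, the gene of the membrane exporter of S1P, rose by 0.55 ± 0.17 (edgeR adjusted p = 0.0139), but its change was -0.18 ± 0.17 with the trend removed. Plppr2, a relative of Plppr1, likewise had 0.33 ± 0.10 (edgeR adjusted p = 0.00988) and -0.34 ± 0.09 with the trend removed. Srf itself had 0.13 ± 0.13 (edgeR adjusted p = 0.378), and -0.71 ± 0.10 with the trend removed (edgeR adjusted p = 3.15e-05).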
